A study of Homo sapiens with 12 samples.

Results

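The BCL2 family decides whether a cell's mitochondria stay sealed or open to start apoptosis, and the messenger RNAs of 10 of its genes were followed here after an estrogen receptor was switched on in breast cancer cells. The rule that picks the genes is a list of names and uses no measured value, although earlier results of these data were known when it was made. It takes the pro-survival members BCL2, BCL2L1 and MCL1, the BH3-only members BCL2L11, BIK, BMF, BID and PMAIP1, and the effectors BAX and BAK1. All 10 were among the 23228 genes in the deposited data, and all 10 were among the 14541 genes abundant enough to be tested. MDA-MB-468 is a triple-negative human breast cancer line, here engineered so that doxycycline turns on the estrogen receptor ERβ1 (gene ESR2). Induced cells had 50 ng/mL doxycycline for 48 hours and uninduced cells had none, and either 10 nM 17β-estradiol (E2) or 0.1% DMSO as vehicle was then given for 4 hours before RNA was taken. The 12 libraries form 4 groups of 3, induced E2, induced vehicle, uninduced E2 and uninduced vehicle, all from cells grown in phenol red-free medium with serum stripped of steroids (10% for 3 days, then 5%). All groups carry the inducible receptor, and cells without it were not analysed here, so doxycycline and the receptor it turns on cannot be told apart. No source used here says whether the replicates were separate cultures, and p-values then reflect nothing beyond the spread among these libraries, which may be technical.

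Pro-survival members hold BAX and BAK1 in check, and once freed, BAX and BAK1 form pores in the outer mitochondrial membrane through which cytochrome c leaves and activates caspases. BH3-only members bind the pro-survival proteins in a groove and so release the effectors, and some also activate the effectors directly. In breast cells that depend on estrogen receptor alpha, BCL2 is a classical estrogen-induced gene and BIK is known to rise when estrogen is withdrawn, while MDA-MB-468 is classed as lacking that receptor. Only RNA was measured, and much of the control of this family acts on the proteins, by cleavage, phosphorylation and turnover.

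Libraries held between 7.89 and 33.3 M counts, and the lowest count of a member in any library was 37, so counting error was smallest for MCL1 and largest for the low genes BCL2 and BIK. ESR2 averaged 104 ± 10.2 CPM (counts scaled to library size by TMM) in induced E2 cells, 121 ± 11.7 CPM in induced vehicle cells, 1.61 ± 0.57 CPM in uninduced E2 cells and 1.3 ± 0.22 CPM in uninduced vehicle cells (SD, n = 3 each), so the labels of the induced groups were borne out in all 6 libraries. The 10 epithelial markers summed to between 9299 and 11150 CPM in every library, with the highest sums (10860 to 11150 CPM) in induced E2 cells. Single epithelial markers moved in both directions. With E2 in induced cells 3 of the 10 rose and none fell, against 9.85% of all genes higher and 6.61% lower. Those that rose were CDH1 by 0.91 (adjusted p = 1.5e-09), KRT18 by 0.30 (adjusted p = 0.0001) and KRT8 by 0.26 (adjusted p = 0.0010). With doxycycline and no E2, 3 rose and 4 fell, against 3.81% of all genes called. Among those that rose was KRT8 at 0.27 (edgeR adjusted p = 0.0029). Among those that fell were KRT6B at −0.86 (adjusted p = 4.2e-05), KRT14 at −0.81 (adjusted p = 0.0014) and KRT5 at −0.51 (adjusted p = 2.4e-05). Of the receptors that triple-negative cells lack by definition, ESR1 stood at 3.21 to 6.12 CPM and PGR was too low to test. ERBB2 RNA averaged 83.3 ± 2.92 CPM in induced E2 cells, 73.2 ± 1.31 CPM in induced vehicle cells, 67.7 ± 1.30 CPM in uninduced E2 cells and 68.6 ± 0.34 CPM in uninduced vehicle cells, and it rose with E2 in induced cells (log2 change 0.19, adjusted p = 0.0025; interaction 0.21, adjusted p = 0.0252). Of the markers of other cell types, immune genes summed to at most 44.0 CPM and fibroblast genes to at most 26.6 CPM, and the fibroblast markers DCN and LUM were at 0 in all 12 libraries. The 4 endothelial genes summed to 24.7 to 32.4 CPM in induced E2 cells, 20.6 to 27.8 CPM in induced vehicle cells, 35.3 to 50.3 CPM in uninduced E2 cells and 37.7 to 52.2 CPM in uninduced vehicle cells. Within this list VWF averaged 9.89 ± 2.87 CPM in induced E2 cells, against 1.29 ± 0.27 CPM in induced vehicle cells (log2 change 2.91, adjusted p = 1.5e-06). KDR averaged 23.2 ± 4.39 CPM in induced vehicle cells, against 44.9 ± 8.26 CPM in uninduced vehicle cells (log2 change −0.97, adjusted p = 0.0019). The part of these markers in the results was not tested. The libraries numbered 1 in each group carry an earlier date in the deposited file names than those numbered 2 and 3, and the 6 genes kept as signs of RNA quality summed to 176 to 313 CPM, with no called change in any comparison among the 4 that could be tested. In bulk RNA of this kind, fewer cells that express a gene and less RNA per cell cannot be told apart.

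On the TPM scale, in which each gene's transcripts are a share of all transcripts and length is corrected so that genes can be set side by side, the family spanned a wide range before any treatment. In uninduced vehicle cells MCL1 was highest at 180 ± 8.11 TPM, followed by BCL2L1 at 133 ± 1.73 TPM, BAX at 94.9 ± 3.20 TPM, BID at 78.4 ± 3.41 TPM and BAK1 at 70.2 ± 0.93 TPM. Next came BIK at 28.5 ± 3.45 TPM, BCL2L11 at 23.1 ± 0.86 TPM, PMAIP1 at 14.97 ± 2.31 TPM and BMF at 13.6 ± 0.82 TPM. BCL2, the founding member of the family, was lowest at 1.47 ± 0.06 TPM (SD, n = 3 throughout). PMAIP1 and BMF did not differ beyond their spread, and the remaining neighbours in this order were further apart than their SDs. The order in induced E2 cells put PMAIP1 at 32.3 ± 4.06 TPM and BCL2L11 at 32.0 ± 1.92 TPM above BIK at 14.9 ± 2.54 TPM and BMF at 11.8 ± 0.68 TPM. PMAIP1 and BCL2L11 differed by less than their spread, and the libraries of BIK and BMF overlapped. MCL1 at 178 ± 3.14 TPM and BCL2L1 at 155 ± 3.78 TPM still led in induced E2 cells, and BCL2 at 2.21 ± 0.08 TPM was still last. These are sums over every annotated transcript of a gene, 18 for BCL2L11, 5 for BAX, 4 for BMF, 3 for MCL1 and BID, 2 for BCL2 and BCL2L1 and 1 for the rest, so splice forms of opposite function, such as the long and short forms of BCL2L1 and MCL1, cannot be told apart.

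**Figure D1:**
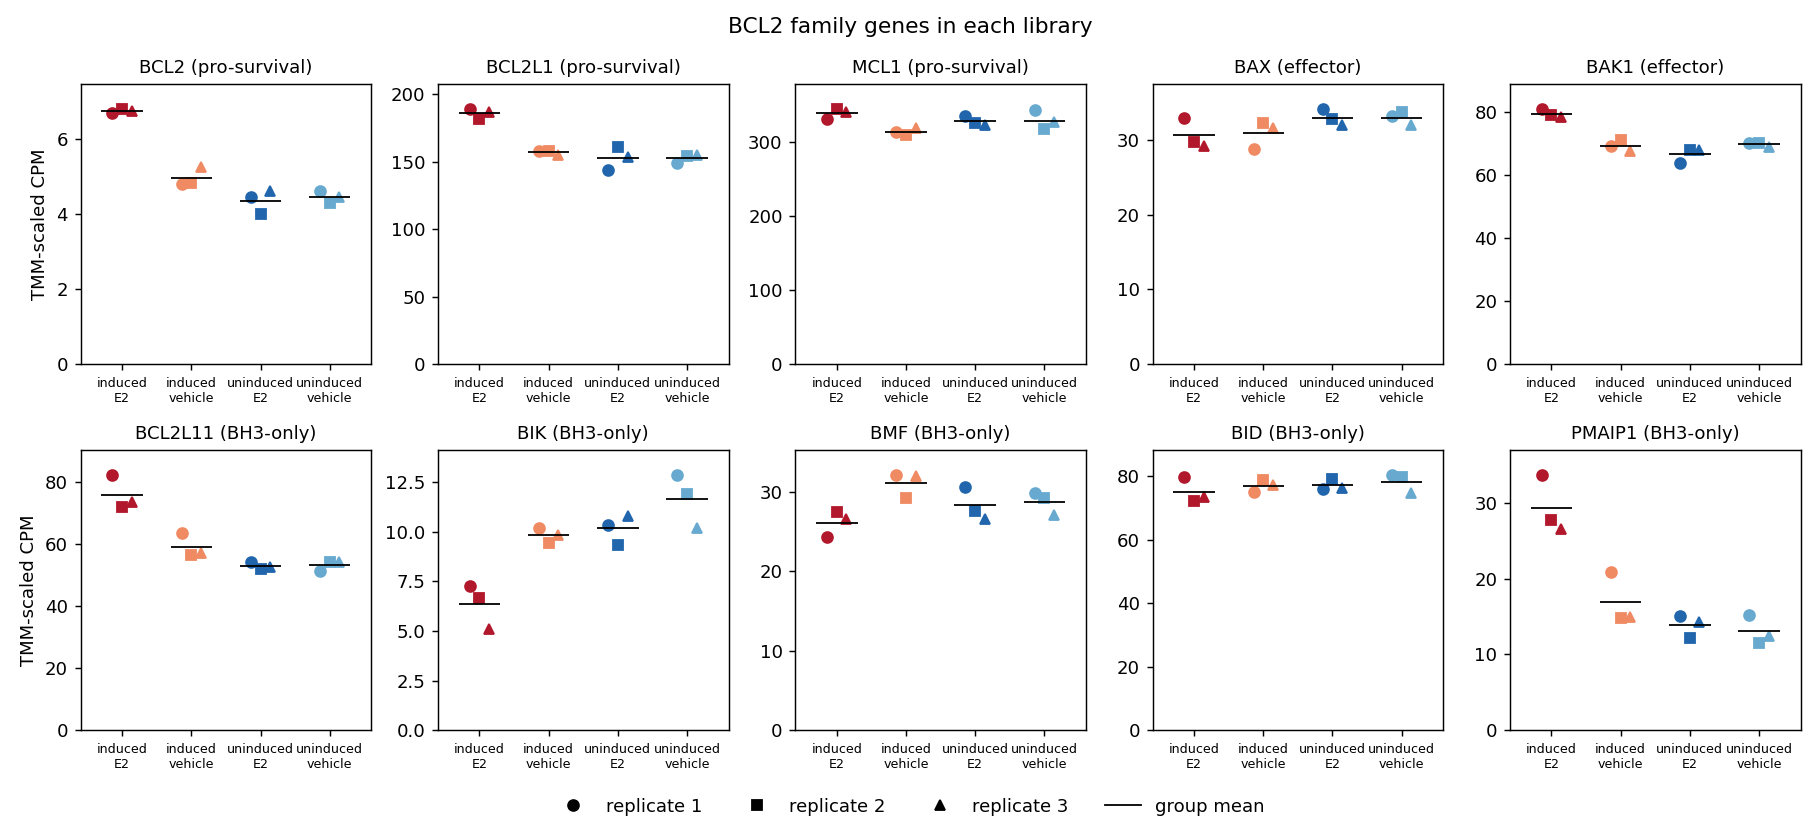
Level of each member in each of the 12 libraries, in CPM, with 1 panel per gene, groups in the order induced E2, induced vehicle, uninduced E2 and uninduced vehicle, markers for libraries (by replicate number) and lines for the mean of 3. The induced E2 points of BCL2, BCL2L1, BCL2L11, PMAIP1 and BAK1 lie above, and those of BIK below, the points of every other group.

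The promoters of the BH3-only genes that rose most in the results below are shown first, because they let the reader see what lies just upstream of each start. Each line gives the 250 bases before the annotated start from RefSeq's GRCh38.p14, chr18:59899746-59899995 for PMAIP1 and chr2:111120664-111120913 for BCL2L11, both on the plus strand. Capitals mark GC boxes (GGGCGG, either strand) and, in BCL2L11 only, a site with the FOXO core GTAAACA.
PMAIP1: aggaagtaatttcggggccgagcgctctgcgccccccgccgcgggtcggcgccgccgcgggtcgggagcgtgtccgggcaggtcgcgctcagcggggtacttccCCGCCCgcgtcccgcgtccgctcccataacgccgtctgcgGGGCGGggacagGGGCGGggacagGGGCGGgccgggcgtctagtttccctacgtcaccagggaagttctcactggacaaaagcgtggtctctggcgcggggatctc
BCL2L11: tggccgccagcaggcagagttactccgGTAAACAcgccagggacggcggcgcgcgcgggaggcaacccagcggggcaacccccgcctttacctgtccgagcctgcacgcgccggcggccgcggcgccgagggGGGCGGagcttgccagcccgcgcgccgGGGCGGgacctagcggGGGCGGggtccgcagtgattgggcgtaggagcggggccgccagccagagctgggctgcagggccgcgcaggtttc

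PMAIP1 holds 4 GC boxes in this stretch and BCL2L11 holds 3, with the BCL2L11 FOXO core at position −223 from the start. Windows of 300 bases, 250 before a start and 50 after it, were at hand for 8 of the 10 members. A member with several starts counted if any window matched, while the shares of all windows below count single windows. The measures are unlike, so no excess among the members can be read from them. A GC box was present in 7 of the 8 members and in 45% of all 35116 windows. The FOXO core was present in BCL2L11 alone among the members and in 3.42% of all windows. The full palindromic estrogen response element, GGTCA and TGACC with 3 bases of any kind between them, was in none of the 8 and in 0.057% of all windows, and its half-site GGTCA, which also lies inside the full element, was in BAX, BID and BMF and in 37.4% of all windows. Further searches on both strands found the AP-1 site TGANTCA (7.71% of all windows) and the cyclic AMP response element TGACGTCA (1.85%) in no member, and the E-box CACGTG (7.26%) in BAX and BID. A match is only a run of letters, and more distant regulatory DNA was not searched.

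Adding E2 to cells that had the receptor changed most of the 10 listed members within 4 hours. Of the 10 members 8 were called at an adjusted p under 0.05 (edgeR's quasi-likelihood test with Benjamini-Hochberg adjustment over all 14541 genes), against a background of 16.5% of all genes, 9.85% higher and 6.61% lower. BCL2, BCL2L1, MCL1, BCL2L11, PMAIP1 and BAK1 rose, BIK and BMF fell, and BID and BAX were not called. Every called member's 3 induced E2 libraries lay outside the range of the 3 induced vehicle libraries. The share of all genes that separate in this way was not computed, so the separation adds no support to the calls. The changes were mostly modest, between 1.08-fold and 1.77-fold upward, with the strongest fall, in BIK, to 0.65 of the vehicle level.

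All of the pro-survival members rose, but to different degrees. BCL2 stood at 6.71, 6.80 and 6.74 CPM in induced E2 cells, against 4.82, 4.84 and 5.26 CPM in induced vehicle cells. In CPM its 3 E2 libraries lay closer together than those of any other member in that group (coefficient of variation 0.69%) and clear of the vehicle libraries. They held only 118, 173 and 150 counts of BCL2, and in TPM they stood further apart, at 2.30, 2.17 and 2.16. The closeness in CPM is therefore no measure of precision. The log2 change was 0.44 (SE 0.10, adjusted p = 0.0044), or 1.36-fold, from a gene whose level per length is a small fraction of those of MCL1 and BCL2L1. The split differed in TPM, where BCL2 averaged 2.21 ± 0.08 in induced E2, 1.78 ± 0.08 in induced vehicle and 1.475 ± 0.06 in uninduced vehicle cells. On that scale, which was not tested, part of the difference from uninduced vehicle cells was present with doxycycline alone. In CPM the induced vehicle libraries also lay above the uninduced vehicle ones (4.30 to 4.62 CPM), with a log2 difference of 0.17 that was not called. BCL2L1, which encodes BCL-XL, stood at 189, 181.5 and 187 CPM in induced E2 cells, against 158, 158 and 155 CPM in induced vehicle cells. The groups were well apart, and the log2 change was 0.24 (SE 0.04, adjusted p = 0.00059), or 1.18-fold. MCL1, a pro-survival protein with very fast turnover, stood at 331, 345 and 342 CPM in induced E2 cells, against 314, 310 and 320 CPM in induced vehicle cells. The groups did not overlap, yet the log2 change of 0.11 (SE 0.04) passed the threshold only just (adjusted p = 0.0493). MCL1 lost its call in 9 of 16 alternatives. Its adjusted p was 0.136 with upper quartile scaling, and 0.0795 to 0.166 when any of the 3 induced vehicle libraries or the induced E2 library numbered 2 or 3 was left out.

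Among the BH3-only members, BCL2L11 and PMAIP1 rose while BIK and BMF fell, with BID in between. PMAIP1 encodes NOXA, which binds MCL1 by preference. It stood at 33.7, 27.8 and 26.6 CPM in induced E2 cells, against 20.8, 14.7 and 14.99 CPM in induced vehicle cells. In both groups the library numbered 1 was the highest, and the lowest E2 library still exceeded the highest vehicle library. The log2 change was 0.83 (SE 0.13, adjusted p = 0.00042), or 1.77-fold with a 95% interval of 1.46 to 2.16, the largest among the members. BCL2L11 encodes BIM, which binds all of the pro-survival proteins and can activate the effectors directly. It stood at 82.2, 71.9 and 73.5 CPM in induced E2 cells, against 63.5, 56.6 and 57.1 CPM in induced vehicle cells. The library numbered 1 was again the highest of each group, and the groups were separate. The log2 change was 0.37 (SE 0.06, adjusted p = 0.00031), or 1.29-fold.

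BIK, a BH3-only protein found largely at the endoplasmic reticulum, moved the other way. It stood at 7.28, 6.65 and 5.12 CPM in induced E2 cells, against 10.2, 9.46 and 9.84 CPM in induced vehicle cells. All E2 libraries were lower, the third most of all, and the spread among them was wide (coefficient of variation 17.4%). The log2 change was −0.63 (SE 0.12, adjusted p = 0.0023). BMF, which is held at the cytoskeleton through a dynein light chain until it is released, stood at 24.3, 27.45 and 26.5 CPM in induced E2 cells, against 32.1, 29.3 and 31.9 CPM in induced vehicle cells. The groups were separate but close, and the log2 change was −0.24 (SE 0.07, adjusted p = 0.025). BMF lost its call in 6 of 16 alternatives, with an adjusted p of 0.0570 to 0.0971 when the induced E2 or the induced vehicle library numbered 1 or 3 was left out. BID, which caspase-8 cleaves to link death receptors to mitochondria, stood at 79.8, 72.2 and 73.5 CPM in induced E2 cells, against 75.1, 79.0 and 77.3 CPM in induced vehicle cells. These ranges overlapped, and the log2 difference was −0.04 with a 95% interval of −0.14 to 0.06 (adjusted p = 0.645).

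The effectors parted company. BAK1, which sits in the outer mitochondrial membrane, stood at 81.0, 79.3 and 78.5 CPM in induced E2 cells, against 69.2, 71.2 and 67.75 CPM in induced vehicle cells. The groups were clearly apart, and the log2 change was 0.20 (SE 0.04, adjusted p = 0.0020), or 1.15-fold. BAX, which moves from the cytosol to mitochondria on activation, stood at 32.98, 29.7 and 29.2 CPM in induced E2 cells, against 28.8, 32.2 and 31.7 CPM in induced vehicle cells. The ranges overlapped, and the log2 difference was −0.02 with a 95% interval of −0.15 to 0.10 (adjusted p = 0.856). The first pair of libraries moved upward in BAX (0.19) and the other 2 pairs downward (−0.12 in each).

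Within each file date the direction of the 8 called members was the same. In the later-dated libraries alone the log2 changes were 0.43 for BCL2, 0.23 for BCL2L1, 0.13 for MCL1, 0.36 for BCL2L11, −0.70 for BIK, −0.17 for BMF, 0.87 for PMAIP1 and 0.18 for BAK1. All of these but BMF (adjusted p = 0.0605) were called there. The earlier-dated pair, with 1 library a group and so no test, gave 0.47 for BCL2, 0.26 for BCL2L1, 0.08 for MCL1, 0.37 for BCL2L11, −0.48 for BIK, −0.40 for BMF, 0.69 for PMAIP1 and 0.23 for BAK1. In these values the later date held the greater change of PMAIP1 and BIK, and the earlier date that of BMF, but the difference between dates was not tested. For BIK it lay in the pair numbered 3 (−0.929), as the earlier pair (−0.479) and the later pair numbered 2 (−0.504) were close.

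**Figure D2:**
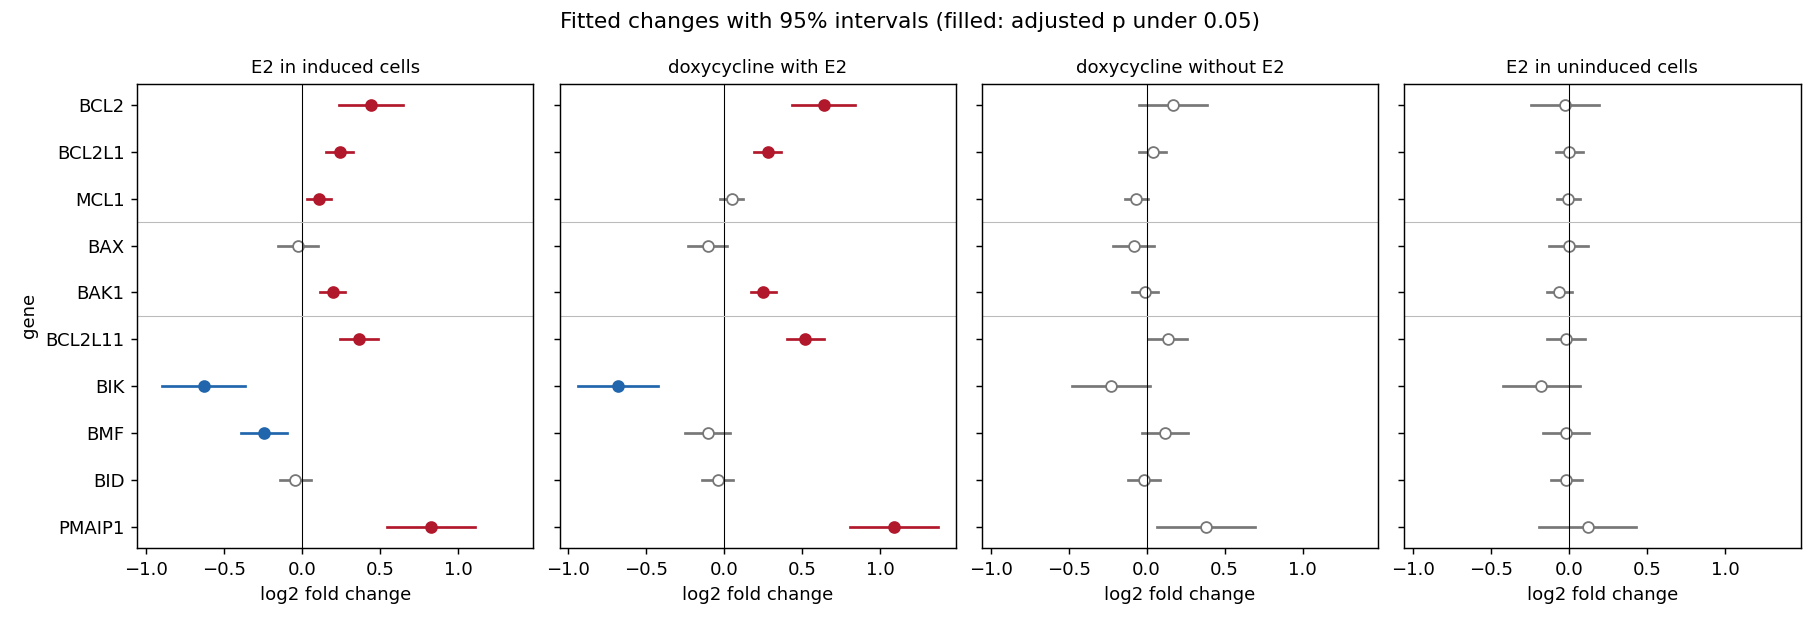
Log2 fold change of each member with its 95% interval in the 4 comparisons between groups, with members in rows by class and filled markers where the adjusted p is under 0.05. The intervals of E2 in induced cells and of doxycycline with E2 clear 0 for BCL2, BCL2L1, BCL2L11, PMAIP1, BIK and BAK1, and the intervals of E2 in uninduced cells all include 0.

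Where the receptor had not been induced, no change of the family by E2 was detected. None of the 10 members was called between uninduced E2 and uninduced vehicle cells by edgeR, against a background of 0% of all genes, and none reached an unadjusted p under 0.05, against 1.56% of all genes. No member was called by limma-voom or DESeq2 either. Member log2 differences lay between −0.18 for BIK (95% interval −0.42 to 0.07) and 0.12 for PMAIP1 (−0.19 to 0.43). PMAIP1 stood at 15.1, 12.2 and 14.3 CPM in uninduced E2 cells, against 15.2, 11.5 and 12.5 CPM in uninduced vehicle cells, and BCL2 stood at 4.47, 4.00 and 4.61 CPM in uninduced E2 cells, against 4.62, 4.30 and 4.45 CPM in uninduced vehicle cells. These groups overlapped, as did those of each other member except BAK1. BAK1 stood at 64.0, 68.2 and 68.2 CPM in uninduced E2 cells, against 70.2, 70.2 and 69.1 CPM in uninduced vehicle cells. The E2 libraries were all lower, with a log2 difference of −0.06 (95% interval −0.14 to 0.02) that was not called.

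The interaction subtracts the uninduced response to E2 from the induced one, and so tests whether the response to E2 differed with the receptor. It was called for 4 of the 10 members, against a background of 8.47% of all genes, and all 4 were higher (5.66% of all genes). The interaction was 0.71 for PMAIP1 (SE 0.20, adjusted p = 0.0385), 0.38 for BCL2L11 (adjusted p = 0.0071), 0.26 for BAK1 (adjusted p = 0.0072) and 0.24 for BCL2L1 (adjusted p = 0.0160). The PMAIP1 call was the least firm of these, and was lost in 10 of 21 alternatives. Its adjusted p was 0.0564 to 0.117 when induced E2 library 1 or 2, induced vehicle library 2 or 3, uninduced E2 library 2 or 3, or uninduced vehicle library 1 or 3 was left out. BCL2 missed the threshold with an interaction of 0.47 (adjusted p = 0.0537), and BIK missed it with −0.45 (adjusted p = 0.138). With the replicate number as a block both were called, BCL2 at an adjusted p of 0.04385 and BIK at 0.04539. MCL1 (0.11), BMF (−0.22), BID (−0.03) and BAX (−0.02) were not called, so for MCL1 and BMF the change seen in induced cells was not shown to differ from that in uninduced cells.

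Doxycycline on its own, without E2, left all 10 members uncalled by edgeR, DESeq2 and limma-voom in fits that used neither replicate number nor file date. The background was 3.81% of all genes called by edgeR, and 2 members reached an unadjusted p under 0.05, against 15.5% of all genes. Those were BCL2L11, with a log2 difference of 0.14 (SE 0.06, adjusted p = 0.275), and PMAIP1, with 0.38 (SE 0.15, adjusted p = 0.211). PMAIP1 stood at 20.8, 14.7 and 14.99 CPM in induced vehicle cells, against 15.2, 11.5 and 12.5 CPM in uninduced vehicle cells. Each same-numbered pair was higher with doxycycline, but the groups overlapped because the libraries numbered 1 were high in both. With the replicate number as a block PMAIP1 was called at 0.35 (adjusted p = 0.0051), and in the later-dated libraries alone at 0.31 (adjusted p = 0.0390). The log2 differences of the remaining members, none of them called, were 0.17 for BCL2, 0.04 for BCL2L1 and −0.07 for MCL1. They were −0.23 for BIK, 0.12 for BMF, −0.02 for BID, −0.08 for BAX and −0.01 for BAK1. The upper 95% bound of the difference was 0.13 for BCL2L1 and 0.08 for BAK1. The induced vehicle libraries lay wholly above the uninduced vehicle ones for BCL2, BCL2L1 and BCL2L11 and wholly below them for BIK, and the remaining members overlapped. The share of all genes that separate in this way was not computed.

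Set against E2-treated cells in which the receptor had not been induced, induced E2 cells differed in 6 of the 10 members, against a background of 28.0% of all genes, 15.0% higher and 13.0% lower. This comparison shares its induced E2 libraries with the one of E2 in induced cells. PMAIP1 had the largest log2 change at 1.09 (SE 0.13, adjusted p = 1.8e-05), or 2.13-fold with a 95% interval of 1.75 to 2.58. BCL2 rose by 0.64 (adjusted p = 0.00012), BCL2L11 by 0.52 (adjusted p = 5.9e-06), BCL2L1 by 0.28 (adjusted p = 9.4e-05) and BAK1 by 0.25 (adjusted p = 0.00015). BIK fell by 0.68 on the log2 scale (adjusted p = 0.00059). The induced E2 libraries of these 6 genes did not overlap the uninduced E2 ones, but the share of all genes that separate in this way was not computed. MCL1 stood at 331, 345 and 342 CPM in induced E2 cells, against 336, 326 and 323 CPM in uninduced E2 cells, which overlap, and its log2 difference of 0.05 was not called except in the later-dated libraries alone (0.08, adjusted p = 0.0474). BMF (−0.11, 95% interval −0.25 to 0.04), BID (−0.04, −0.14 to 0.06) and BAX (−0.11, −0.23 to 0.02) were not called.

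For MCL1 and BMF the position of the induced vehicle group matters to the E2 comparison. MCL1 averaged 339 ± 7.32 CPM in induced E2 cells, 315 ± 5.00 CPM in induced vehicle cells, 328 ± 6.87 CPM in uninduced E2 cells and 330 ± 12.9 CPM in uninduced vehicle cells. The induced vehicle mean was thus the lowest of the 4, and the induced E2 mean lay within 1 SD of the uninduced vehicle mean. BMF averaged 26.1 ± 1.63 CPM in induced E2 cells, 31.1 ± 1.59 CPM in induced vehicle cells, 28.3 ± 2.08 CPM in uninduced E2 cells and 28.7 ± 1.48 CPM in uninduced vehicle cells. Here the induced vehicle mean was the highest of the 4. Neither gene was called between induced vehicle and uninduced vehicle cells, with log2 differences of −0.07 for MCL1 and 0.12 for BMF.

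Pro-survival and BH3-only transcripts were then compared as classes. Their TPM values were summed in each library, with no test, because the genes had been chosen with earlier results known. The pro-survival sum was 336 ± 4.01 TPM in induced E2 cells, 306 ± 3.23 TPM in induced vehicle cells, 311 ± 2.02 TPM in uninduced E2 cells and 314 ± 6.77 TPM in uninduced vehicle cells. The BH3-only sum was 163 ± 10.5 TPM in induced E2 cells, 159 ± 5.62 TPM in induced vehicle cells, 154 ± 4.31 TPM in uninduced E2 cells and 159 ± 8.42 TPM in uninduced vehicle cells. The pro-survival sum of induced E2 cells therefore stood apart from the other groups, while the BH3-only sums overlapped.

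The ratio of the sums moved little. It was 1.91, 2.10 and 2.17 in induced E2 cells, 1.86, 1.95 and 1.97 in induced vehicle cells, 1.98, 2.09 and 2.004 in uninduced E2 cells and 1.92, 1.93 and 2.09 in uninduced vehicle cells. Induced vehicle cells lay wholly below uninduced E2 cells, if narrowly (highest 1.97, lowest 1.98), and each other pair of groups overlapped. Transcripts of the pro-survival members outnumbered those of the BH3-only members in each library. With E2 in induced cells the log2 ratio differed by 0.10, higher in 3 of 3 same-numbered pairs, while its SD within groups was 0.10 in induced E2 and 0.05 in induced vehicle cells. The difference was therefore no larger than the SD of the induced E2 libraries. It was 0.1505 without induced E2 library 1, 0.0557 without induced E2 library 3, 0.0249 from CPM and 0.1636 from mean log2 levels. With doxycycline and no E2 the log2 ratio differed by −0.04, higher in 1 of 3 pairs, with doxycycline in the presence of E2 by 0.02, higher in 2 of 3, and with E2 in uninduced cells by 0.03, higher in 2 of 3.

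**Figure D3:**
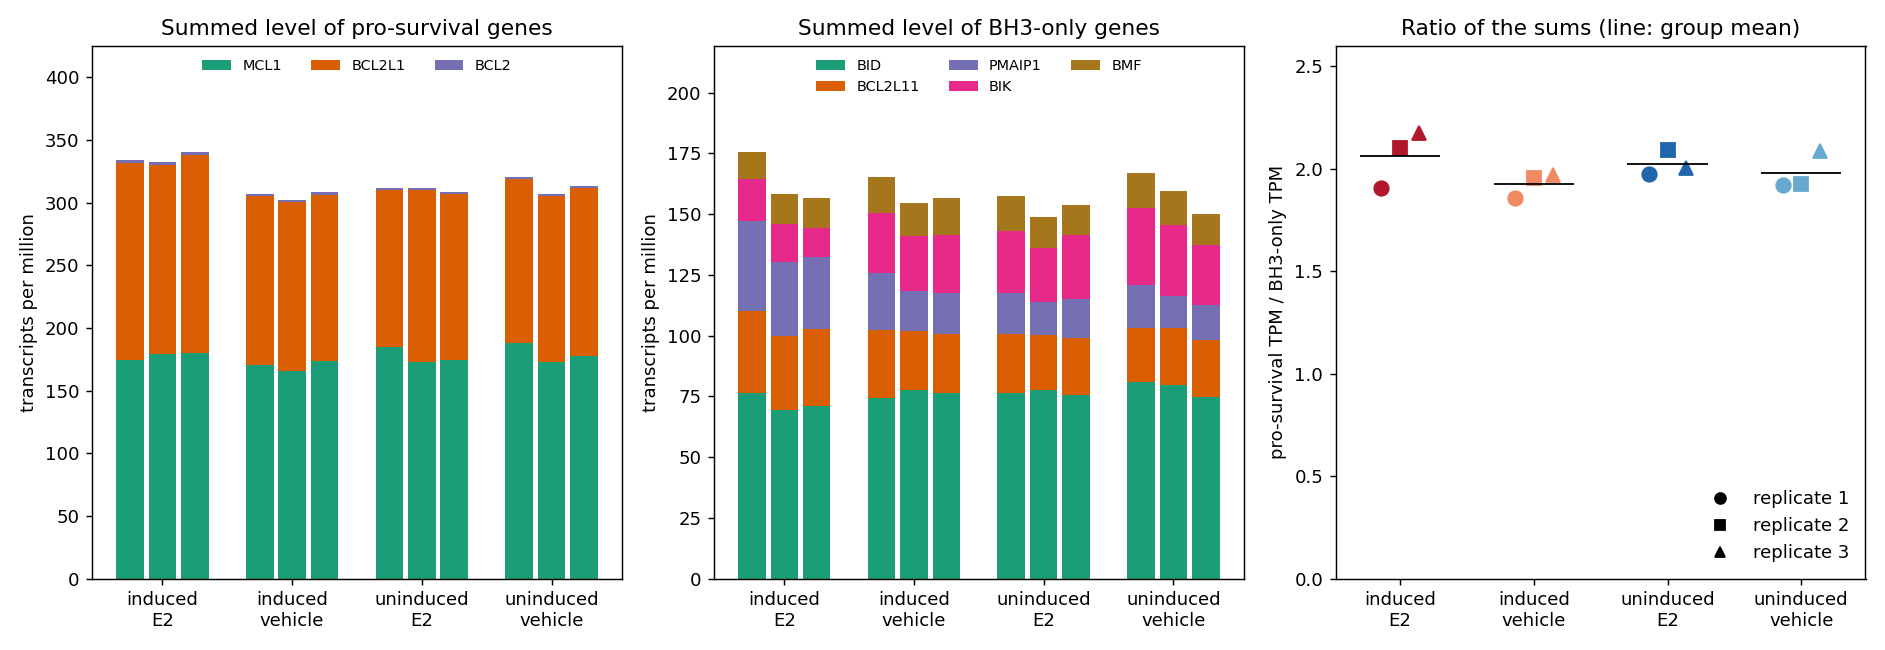
Summed TPM of the pro-survival and BH3-only members in each of the 12 libraries, as bars stacked by gene, and the ratio of the sums, with markers for libraries and lines for group means. The pro-survival sums of induced E2 cells lie above those of the other groups. The ratios lie between 1.86 and 2.17, with induced vehicle cells narrowly below uninduced E2 cells and each other pair of groups overlapping.

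Opposite movements inside the BH3-only class nearly cancelled in its sum. With E2 in induced cells PMAIP1 and BCL2L11 together gained 19.8 TPM, BIK and BMF together lost 11.5 TPM, and BID differed by −3.82 TPM. The pro-survival sum was 9.76% higher and the BH3-only sum 2.83% higher than in induced vehicle cells. Most of the pro-survival gain lay in BCL2L1, at 21.1 ± 3.99 TPM, against 8.29 ± 5.30 TPM in MCL1 and 0.43 ± 0.11 TPM in BCL2 (the SD of a difference is the root of the summed variances). BCL2, whose fold change was the greatest of the 3, thus added almost nothing to the class in transcripts.

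The makeup of the BH3-only class shifted more than its total. Of the summed transcripts of the listed BH3-only genes, PMAIP1 made up 19.7% ± 1.19 in induced E2 cells, against 11.9% ± 2.03 in induced vehicle cells. BCL2L11 made up 19.6% ± 0.61 in induced E2 cells, against 16% ± 0.71 in induced vehicle cells. BIK made up 9.13% ± 1.19 in induced E2 cells, against 14.9% ± 0.24 in induced vehicle cells, and BMF 7.27% ± 0.85 in induced E2 cells, against 9.16% ± 0.47 in induced vehicle cells (SD, n = 3 each). BID remained the most abundant of the 5 listed BH3-only genes, at 44.3% ± 0.99 in induced E2 cells, against 48.0% ± 2.66 in induced vehicle cells. These differences were larger than the SDs of both groups, and no test was run on them.

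**Figure D4:**
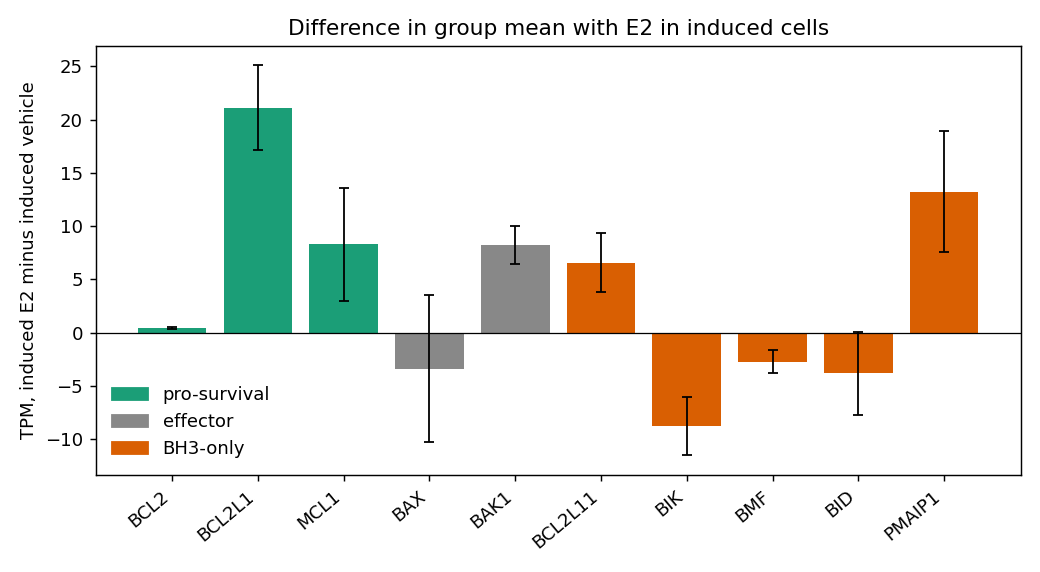
Difference in mean TPM of each member between induced E2 and induced vehicle cells, with the SD of the difference, by class. BCL2L1 and PMAIP1 gained most at 21.1 and 13.2 TPM, and BIK lost most at −8.79 TPM.

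Of the rest of the BCL2 family, 12 of 14 listed genes could be tested, and E2 in induced cells raised 1 and lowered 1 of them, a share near the 16.5% of all genes called. BCL2L2, which encodes the pro-survival BCL-W, rose by 0.26 (SE 0.05, adjusted p = 0.0023), and its interaction was 0.25 (adjusted p = 0.0442). BBC3, which encodes the BH3-only protein PUMA, stood at 3.09 ± 0.30 CPM in induced E2 cells, against 4.39 ± 0.94 CPM in induced vehicle cells. Its log2 change was −0.53 (SE 0.15, adjusted p = 0.0240), a fall in the same direction as BIK and BMF. Against uninduced E2 cells, 2 of the 12 rose and 2 fell in induced E2 cells, with 15.0% of all genes higher and 13.0% lower, among them BOK, a BAX-like effector, at −0.32 (adjusted p = 0.0172). The median log2 change of the 12 was 0.01 with E2 in induced cells and −0.01 over all genes tested.

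Genes downstream and upstream of the family were read against the same background, 9.85% of all genes higher and 6.61% lower with E2 in induced cells. Of 14 genes of the apoptosome and caspases, 1 rose and 2 fell. Those that fell were CASP6, an executioner caspase, at −0.24 (adjusted p = 0.0268) and HTRA2, a mitochondrial protease that relieves inhibition of caspases, at −0.23 (adjusted p = 0.0211). The median of the 14 was 0.01. Of 11 death receptor pathway genes 1 rose and 3 fell, with a median of −0.06. TNFSF10, which encodes the death ligand TRAIL, had a log2 change of −0.42 (SE 0.05, adjusted p = 3.5e-05), and FAS of −0.55 (adjusted p = 0.0393), CASP8, the initiator that cleaves BID, of −0.20 (adjusted p = 0.0318) and the adaptor FADD of 0.18 (adjusted p = 0.0335). For TNFSF10 the direction depended on the ligand, with 0.33 for doxycycline without E2 (adjusted p = 0.0016) and an interaction of −0.52 (adjusted p = 0.00027).

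Of 14 genes that tether, modify or turn over BCL2 family proteins, 4 rose and none fell with E2 in induced cells, against 9.85% of all genes higher and 6.61% lower, with a median of 0.06. PIM1, a kinase that phosphorylates and inactivates the BH3-only protein BAD, rose by 1.24 (SE 0.06, adjusted p = 4.5e-09). The co-chaperones BAG1 at 0.20 (adjusted p = 0.0023) and BAG3 at 0.39 (adjusted p = 0.0036), of a family named for binding BCL2, and the mitochondrial ubiquitin ligase MARCH5 at 0.14 (adjusted p = 0.0332) rose by less. With doxycycline and no E2, against 3.81% of all genes called, the only called gene of these 14 was FBXW7, a ubiquitin ligase subunit for MCL1, at 0.31 (adjusted p = 0.0137). Induced E2 cells against uninduced E2 cells had 7 of the 14 higher, against 15.0% of all genes, among them HUWE1, a ubiquitin ligase for MCL1, at 0.41 (adjusted p = 0.0010).

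Of 13 transcription factors known to act on members, 5 rose and 1 fell with E2 in induced cells, against 9.85% of all genes higher and 6.61% lower, and the list's median log2 change was 0.04. FOXO3, which is known to activate BCL2L11 and BBC3, averaged 405 CPM in induced E2 cells, 227 CPM in induced vehicle cells, 189 CPM in uninduced E2 cells and 191 CPM in uninduced vehicle cells. Its log2 change with E2 in induced cells was 0.84 (SE 0.04, adjusted p = 1.2e-08), its interaction 0.85 (adjusted p = 1.2e-06), and its change with doxycycline without E2 0.25 (adjusted p = 0.0053). BCL2L11 and BBC3 had log2 changes of opposite sign in the same comparison, 0.37 and −0.53. STAT3, an activator of BCL2L1 and MCL1, rose by 0.22 (adjusted p = 0.0011) and ATF4, a stress-response factor known to act on PMAIP1, by 0.13 (adjusted p = 0.0283). Whether any of these factors acted on the members was not tested.

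The genes whose levels followed a member most closely over the 12 libraries were found for 1 member of each class. BCL2L1 was followed by RAB11FIP3 (Pearson r of log2 CPM 0.98), MAN1C1 (0.97) and DAPK2 (0.97). BCL2L11 was followed by GREB1 (0.99), a gene known for its response to estrogen, and by ITGB5 (0.99) and FAM46A (0.99). BAK1 was followed by RNF222 (0.97), ATG4D (0.97) and OSBPL3 (0.96). These are the highest of 12421 genes, the points share the 4 groups, and the values are a description with no test.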

How the data were processed

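RNA from 12 samples of MDA-MB-468 cells was measured by sequencing. The deposited files give RSEM expected counts per gene symbol and, in a further column by the authors, each gene's fraction of transcripts; RSEM 1.1.16, DESeq 1.7.10 and hg19 are named in the submitters' processing notes. The aligner and whether counting used strand are not given in the sources used here. Exons of BCL2L1, BCL2L11, BMF and BAK1 overlap an antisense gene, those of MCL1 overlap ADAMTSL4-AS1, and BAK1 has pseudogenes in the GENCODE annotation, so these counts are less certain. Fractions were rescaled to TPM to set genes side by side.

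The members and lists were chosen with earlier results of these data known. Expected counts were rounded, and genes kept by filterByExpr (minimum count 10, total 15). After TMM scaling, edgeR 4.0.16 (R 4.3.3) fitted all 12 libraries by quasi-likelihood with a mean for each of the 4 groups (8 residual degrees of freedom), with Benjamini-Hochberg adjustment over all tested genes within a contrast. SEs and 95% intervals are unadjusted Wald values. Libraries held 7.89 to 33.3 M counts, and the biological coefficient of variation was 5.34%. The script was tested on simulated data. All members are named. From each further list, at most 4 called genes were named, in order of p, or at most 2 where none was called, and some genes that this rule allows are not reported here. Likeness was computed for the member with the smallest p in each class.

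File names tie each replicate number to a lane, and number 1 to the earlier date, so the numbers were taken as pairing the samples. The main fit left this pairing out, and the replicate number as a block was an alternative. Deviations from group means correlated at 0.0409 to 0.433 (median 0.219) for the 18 same-numbered pairs of libraries and at −0.398 to 0.321 (median −0.188) for the 36 others, over 12422 genes. Number and lane cannot be told apart, and the earlier date cannot be told apart from number 1, while numbers 2 and 3 share the later date. Alternatives were RLE and upper quartile scaling, no filter, the block, the date as covariate, the later date alone, only the groups compared, DESeq2 1.42.0, limma-voom (limma 3.58.1), an adjusted p under 0.01, and each library left out.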

Additional observations from a re-analysis of the deposited data

Results flagged for a closer look

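For 4 members the E2 change differed between induced and uninduced cells by the test of the interaction in edgeR's quasi-likelihood model. PMAIP1 had an interaction of 0.71 (adjusted p = 0.0385), with log2 E2 changes of 0.83 in induced and 0.12 in uninduced cells. BCL2L11 had an interaction of 0.38 (adjusted p = 0.0071), with 0.37 in induced and −0.02 in uninduced cells. BAK1 had an interaction of 0.26 (adjusted p = 0.0072), with 0.20 in induced and −0.06 in uninduced cells. BCL2L1 had an interaction of 0.24 (adjusted p = 0.0160), with 0.24 in induced and 0.00 in uninduced cells. In each the E2 libraries exceeded the vehicle libraries in 3 of 3 same-numbered induced pairs. Among the uninduced pairs they did so in 2 of 3 for PMAIP1, 1 of 3 for BCL2L11 and BCL2L1, and none for BAK1.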

How the results depend on the processing

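Over 850 alternative values of the members' log2 changes, 783 kept their direction and their side of the threshold. Of the rest, 26 were no longer called, some of them only because the threshold was an adjusted p of 0.01, and 10 were newly called. A further 31 changed sign, all of them called in neither setting. BCL2, BCL2L1, BCL2L11, BIK, PMAIP1 and BAK1 kept their call for E2 in induced cells in all 16 alternatives. Leaving out single libraries gave 6 to 7 members called for E2 in induced cells, 6 for doxycycline with E2, 0 for the comparisons of doxycycline without E2 and of E2 in uninduced cells, and 3 to 4 for the interaction. For doxycycline without E2, 1 member (PMAIP1) was called with the replicate block, the date as a covariate or the later date alone, and the cause was not tested. The interaction kept 2 members at an adjusted p under 0.01. The replicate block also called BCL2 and BIK in the interaction and changed no other member's call. Over all genes it called 3460 against 2394 without the block for E2 in induced cells, 1456 against 554 for doxycycline without E2, 5420 against 4078 for doxycycline with E2, none in either for E2 in uninduced cells, and 2143 against 1232 for the interaction. Upper quartile scaling shifted the median gene by at most 0.05 and turned the split for doxycycline with E2 to 1799 higher and 2679 lower genes, against 2184 and 1894. The log2 ratio of pro-survival to BH3-only transcripts was 1.04, 0.95, 1.02 and 0.98 in induced E2, induced vehicle, uninduced E2 and uninduced vehicle cells. In the same order it was 1.32, 1.298, 1.41 and 1.40 from CPM, which weights long transcripts, 0.79, 0.72, 0.79 and 0.74 with the most abundant member of each class left off, and 0.64, 0.48, 0.52 and 0.48 from mean log2 levels. Its difference for E2 in induced cells was 0.0954, 0.0249 from CPM, 0.073 with the most abundant members left off, 0.1636 from mean log2 levels, and 0.0557 to 0.1505 over left-out libraries. It became −0.10 for doxycycline without E2 and −0.0901 with E2 from CPM, and 0.12 with E2 from mean log2 levels. Members that changed sign had log2 values near 0: with doxycycline and no E2, BID 0.013 at the later date and −0.053 to 0.0019 over left-out libraries, and BAK1 −0.0294 to 0.0093. For E2 in uninduced cells MCL1 was 0.0016 with upper quartile scaling, 0.0053 at the later date and 0.0003 with limma-voom, BID 0.0069 at the later date, and BAX 0.0039 with upper quartile scaling and 0.0003 with no filter. Left-out libraries there gave −0.0744 to 0.0405 for BCL2, −0.0366 to 0.0406 for BCL2L1, −0.0292 to 0.0252 for MCL1, −0.0731 to 0.0202 for BMF, −0.0519 to 0.003 for BID and −0.0276 to 0.0205 for BAX. They gave −0.0772 to 0.0159 for BAX with E2 in induced cells, and −0.0699 to 0.0106 for BID and −0.0753 to 0.0175 for BAX in the interaction. With the earlier date alone, an alternative chosen after seeing the data, no called value changed sign. The main limits are 3 libraries a group, RNA alone without protein, gene-level sums over splice forms, and effects of under 1.3-fold in most members.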
